A study of Homo sapiens with 15 samples.

Results

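The genes described here are HMGCS1, FDPS, SQLE, INSIG1 and AACS, 5 genes of sterol synthesis and of the sterol feedback loop, out of 14884 genes that carried a symbol. They were chosen by symbol, and each was represented by the brightest row that carried its symbol; 6 rows carried these symbols, since FDPS had 2. All 5 passed the filter on dim genes and were among the 11804 genes tested. Expression was measured on whole-transcript arrays of Caco-2 cells, an established human colon carcinoma line that takes on enterocyte features when kept confluent. The 3 groups of 5 arrays were control cells without any treatment, cells exposed for 48 h to 1 µg/mL of lipopolysaccharide (LPS, an endotoxin of bacterial outer membranes; here of E. coli K12), and cells that received the same LPS after 1 h with trans-resveratrol (RSV, a stilbene of grape skin) at 50 µM (LPS+RSV). All cells were harvested between 15 and 19 days after seeding, and the labels do not assign arrays to days. The resveratrol was dissolved in ethanol, and the labels do not say that the other groups received ethanol. A single cell line stands for the enterocyte here, and nothing in the labels says that the replicates were separate cultures, so p-values measure only the spread between these arrays, which may be technical.

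Cells make cholesterol from acetyl-CoA through acetoacetyl-CoA, HMG-CoA, mevalonate, farnesyl diphosphate and squalene. The endoplasmic reticulum senses sterols through SCAP and the INSIG proteins: when sterols are plentiful, INSIG holds SCAP and the SREBP transcription factors back, and when sterols are scarce, SREBP moves on, is cut and switches on the synthesis enzymes together with INSIG1 itself. In the intestine, where cells also absorb dietary sterol, this loop sets how much cholesterol is made locally. AACS activates acetoacetate to acetoacetyl-CoA in the cytosol, HMGCS1 makes HMG-CoA, FDPS makes farnesyl diphosphate, SQLE oxidises squalene, and INSIG1 is the feedback brake.

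The stretches just upstream of the start sites of HMGCS1, FDPS, INSIG1 and AACS are shown as a description. They were not compared with how closely the genes followed each other from array to array. SQLE had no entry in the promoter table used, so its promoter was not searched. Each line gives 215 bases that end at the base before the start, 5′ to 3′ on the gene's strand, from the RefSeq promoter table of GRCh38.p14. The capitals mark matches to CCAAT (the box bound by NF-Y, ATTGG on the other strand) or to CACNCCAC, the core of a sterol regulatory element, also searched on both strands. HMGCS1 is at chr5:43313413-43313627, minus strand; FDPS at chr1:155308651-155308865, INSIG1 at chr7:155297663-155297877 and AACS at chr12:125065220-125065434, all on the plus strand.
HMGCS1: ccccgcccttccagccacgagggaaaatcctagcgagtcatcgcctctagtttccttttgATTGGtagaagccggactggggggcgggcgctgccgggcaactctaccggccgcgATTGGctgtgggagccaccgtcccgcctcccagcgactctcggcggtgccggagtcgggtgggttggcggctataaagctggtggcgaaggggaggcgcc
FDPS: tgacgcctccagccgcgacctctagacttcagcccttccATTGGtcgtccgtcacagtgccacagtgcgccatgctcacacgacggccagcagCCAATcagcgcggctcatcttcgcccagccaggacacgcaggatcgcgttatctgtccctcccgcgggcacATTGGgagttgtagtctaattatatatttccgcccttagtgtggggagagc
INSIG1: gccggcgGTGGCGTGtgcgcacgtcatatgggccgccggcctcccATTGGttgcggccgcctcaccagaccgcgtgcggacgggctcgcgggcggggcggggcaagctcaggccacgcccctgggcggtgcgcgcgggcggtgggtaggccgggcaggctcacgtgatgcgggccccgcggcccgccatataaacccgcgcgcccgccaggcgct
AACS: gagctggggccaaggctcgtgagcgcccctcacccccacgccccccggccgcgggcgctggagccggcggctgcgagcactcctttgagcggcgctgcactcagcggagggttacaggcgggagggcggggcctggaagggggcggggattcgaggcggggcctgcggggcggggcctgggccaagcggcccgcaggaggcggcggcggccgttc
The table held 5 windows of 300 bases for these 4 genes, since HMGCS1 has 2 start sites in it. CCAAT occurred in 3 of the 5, against 34.6% of 35116 windows: FDPS held it 3 times, HMGCS1 2 times in the window shown, and INSIG1 once. CACNCCAC occurred in 1 of the 5, in INSIG1, against 5.87% of all windows. The longer form TCACNCCAC, which contains that core, occurred in 0 of 5, against 1.13% of all windows, and the GC box GGGCGG, left in lower case above, in 5 of 5, against 45.0%. These matches describe letters in short windows and were not tested as binding sites.

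Array medians lay between 5.49 and 5.54 on the log2 scale, and pairs of arrays correlated between 0.922 and 0.994 across the genes tested. The third principal component held 11.5% of the variance. It set LPS replicates 1 and 2, at 17.85 and 19.40, away from all other arrays, at -8.30 to 0.99. Results are given with and without these 2 arrays. On the first component LPS+RSV replicate 1 lay farthest out, at -36.34 against -19.68 to 20.28 for the others. It also did on the second, at 21.39 against -12.54 to 8.16. Fits without it are given for STARD4 and among those with 1 array left out. A proliferation score, the mean log2 deviation of 23 cell cycle genes, spanned -1.05 to 0.46 over the control arrays, -0.02 to 1.02 over the LPS arrays and -0.90 to 0.45 over the LPS+RSV arrays. Of 15 enterocyte markers 9 were named here, among them the brush border genes VIL1, SI and DPP4, and all 9 lay above the filter level on 15 of 15 arrays. Their mean log2 level per array was 9.14 to 9.71 in control, 9.05 to 9.86 in LPS and 8.94 to 9.83 in LPS+RSV. Markers of other intestinal epithelial cells (9 of 13 named) had mean levels of 5.52 to 5.86, 5.56 to 5.80 and 5.56 to 5.84 in these groups, and those of immune, fibroblast and endothelial cells (5 of 12 named) 6.41 to 6.58, 6.43 to 6.69 and 6.37 to 6.61. Of the other epithelial markers, 4 of the 9 lay above the filter level on 15 of 15 arrays (TFF3, FCGBP, LYZ and ASCL2) and GCG of enteroendocrine cells on 0. Of the last list, 4 of the 5 did so on 15 of 15 (CD68, LYZ, PECAM1 and VWF) and DCN of fibroblasts on 0. CD68, a lysosomal protein gene of macrophages, averaged 11.51 ± 0.33 in control, 11.43 ± 0.16 in LPS and 11.71 ± 0.32 in LPS+RSV (SD, n = 5). The part of these markers in the results was not tested.

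Sterol genes read highest in LPS, but no difference between groups passed the test over all genes for any of the 5 genes. In LPS against control all 5 had a higher mean in LPS, by 0.16 to 0.43 on the log2 scale. After resveratrol pretreatment all 5 had a lower mean than in LPS alone, by 0.09 to 0.43. FDPS and INSIG1 had almost the same mean in LPS+RSV as in control, whereas the means of HMGCS1 and SQLE lay below and that of AACS above control. Adjusted p-values are limma's, over the 11804 genes of a comparison, and a gene was called at an adjusted p under 0.05. In bulk RNA, fewer cells that express a gene and less of its RNA per cell cannot be told apart.

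**Figure D1:**
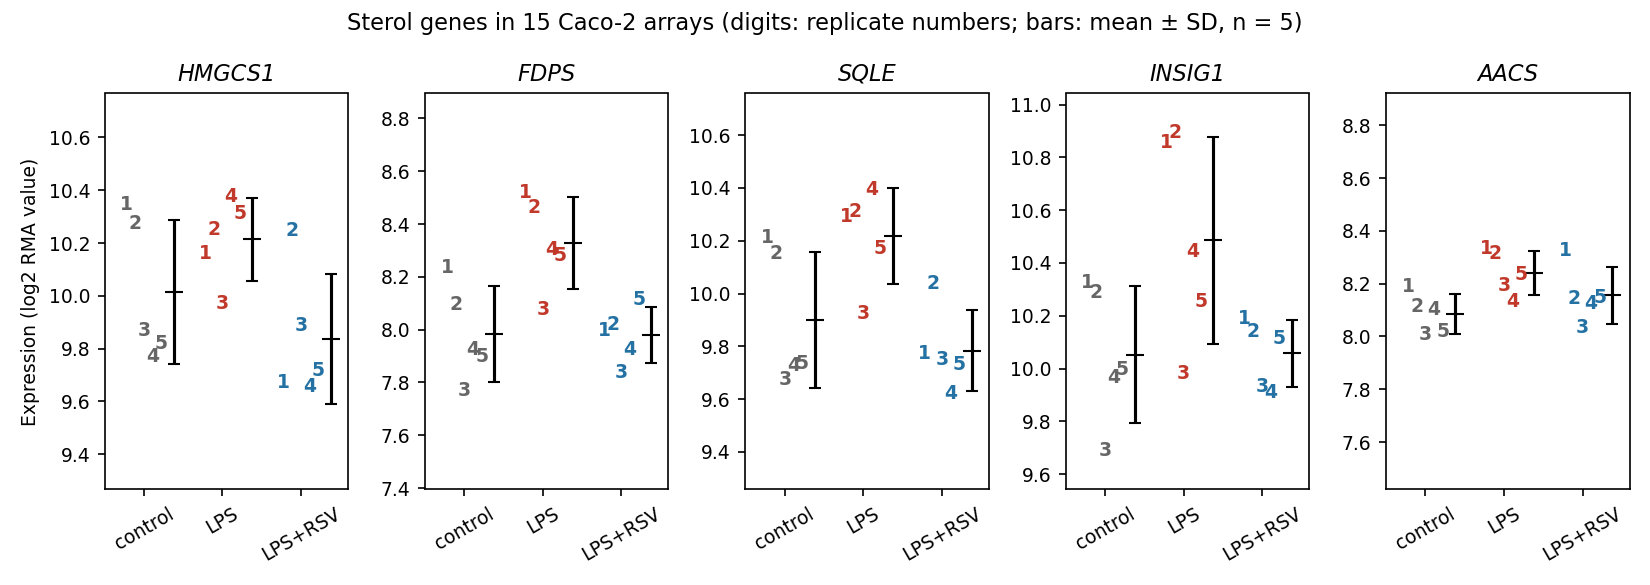
Expression (log2 RMA value, vertical axes, each spanning the same range) of 5 sterol genes on 15 arrays; digits are replicate numbers, and bars show the group mean ± SD (n = 5). LPS replicates 1 and 2 are the highest 2 INSIG1 arrays at 10.86 and 10.89, and LPS replicate 3 lies lowest of its group for HMGCS1, FDPS, SQLE and INSIG1.

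AACS, the first enzyme of the 5 in the pathway, was the steadiest of them, with a range of 0.33 over the 15 arrays. In control replicates 1 to 5 it read 8.19, 8.11, 8.01, 8.10 and 8.02. In LPS it read 8.33, 8.32, 8.19, 8.13 and 8.23, and in LPS+RSV 8.33, 8.14, 8.03, 8.13 and 8.15. Of the LPS arrays 4 lay above all control arrays, and LPS+RSV replicate 1 was as high as the highest LPS array. The group means were 8.09 ± 0.07 in control, 8.24 ± 0.08 in LPS and 8.16 ± 0.11 in LPS+RSV (SD, n = 5 each). LPS differed from control by 0.16 ± 0.07 (SE; 95% interval 0.01 to 0.30; limma adjusted p = 0.587), and LPS+RSV from LPS by -0.09 ± 0.07 (interval -0.23 to 0.06; limma adjusted p = 0.506). In the order of levels, the step from LPS down to LPS+RSV was smaller than the SD within LPS+RSV.

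HMGCS1, the cytosolic HMG-CoA synthase, divided the control group into high and low arrays. Its control values were 10.35, 10.27, 9.87, 9.77 and 9.82 for replicates 1 to 5. The LPS values were 10.16, 10.25, 9.97, 10.37 and 10.31, and the LPS+RSV values 9.67, 10.25, 9.89, 9.66 and 9.72. Control replicates 1 and 2 and LPS+RSV replicate 2 were as high as the LPS arrays, so the groups overlapped in every comparison. The means were 10.02 ± 0.27 in control, 10.21 ± 0.16 in LPS and 9.84 ± 0.25 in LPS+RSV. LPS exceeded control by 0.20 ± 0.13 (95% interval -0.09 to 0.48; limma adjusted p = 0.782), less than the SD within control. LPS+RSV lay below LPS by 0.38 log2 units, a difference of -0.38 ± 0.13 (interval -0.66 to -0.09; limma adjusted p = 0.176), and 4 of 5 LPS+RSV arrays lay below all LPS arrays.

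FDPS, whose product feeds both sterol synthesis and protein prenylation, had the clearest step between LPS and control of the 5. Control arrays read 8.23, 8.09, 7.77, 7.93 and 7.90. LPS arrays read 8.52, 8.46, 8.08, 8.30 and 8.28, and LPS+RSV arrays 7.998, 8.02, 7.84, 7.93 and 8.12. LPS replicate 3 was the only LPS array within the range of the other groups, and 4 of 5 LPS arrays lay above all control arrays. The mean of 8.33 ± 0.17 in LPS stood against 7.98 ± 0.18 in control and 7.98 ± 0.10 in LPS+RSV, a 1.27-fold higher value in LPS than in either. The difference was 0.34 ± 0.10 from control (95% interval 0.14 to 0.55; limma adjusted p = 0.351) and -0.35 ± 0.10 for LPS+RSV against LPS (interval -0.56 to -0.14; limma adjusted p = 0.129). These intervals are for 1 gene and not adjusted for the number of genes. Of the genes tested, 0.788% had a lower p than FDPS in LPS against control, and 2.00% did in the other comparison.

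The second, dimmer row with the FDPS symbol did not follow the first. Its values were 7.27, 7.20, 6.98, 7.18 and 7.22 in control, 7.16, 7.63, 7.61, 7.16 and 7.22 in LPS, and 7.77, 7.20, 7.02, 7.33 and 7.58 in LPS+RSV. Its highest arrays were LPS+RSV replicate 1 and LPS replicates 2 and 3. LPS exceeded control by 0.19 in this row, and LPS+RSV differed from LPS by only 0.02, so the lower FDPS value in LPS+RSV rests on the brighter row alone. The correlation of the 2 rows over the 15 arrays, given as a description, was 0.25 (Pearson) and 0.26 (Spearman).

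SQLE, the squalene epoxidase, had the largest difference between LPS+RSV and LPS, by a small margin over INSIG1. It read 10.21, 10.15, 9.67, 9.73 and 9.73 in control replicates 1 to 5. In LPS it read 10.29, 10.31, 9.92, 10.39 and 10.17, and in LPS+RSV 9.77, 10.04, 9.75, 9.62 and 9.73. As for HMGCS1, control replicates 1 and 2 and LPS+RSV replicate 2 were the high arrays of their groups, and 4 of 5 LPS+RSV arrays lay below all LPS arrays. The means were 9.90 ± 0.26 in control, 10.22 ± 0.18 in LPS and 9.78 ± 0.15 in LPS+RSV. LPS differed from control by 0.32 ± 0.12 (95% interval 0.06 to 0.57; limma adjusted p = 0.544) and LPS+RSV from LPS by -0.43 ± 0.12 (interval -0.69 to -0.18; limma adjusted p = 0.127), 1.35-fold lower in LPS+RSV.

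INSIG1, the feedback gene, had the widest range, 1.20 over the 15 arrays, and the widest spread within LPS. Control arrays read 10.32, 10.29, 9.69, 9.97 and 10.00. LPS arrays read 10.86, 10.89, 9.98, 10.44 and 10.25, and LPS+RSV arrays 10.19, 10.14, 9.93, 9.91 and 10.12. LPS replicates 1 and 2 were the highest arrays of all, and LPS replicate 3 lay within the range of both other groups. The mean was 10.49 ± 0.39 in LPS against 10.05 ± 0.26 in control and 10.06 ± 0.13 in LPS+RSV. LPS differed from control by 0.43 ± 0.16 (95% interval 0.09 to 0.77; limma adjusted p = 0.534) and LPS+RSV from LPS by -0.43 ± 0.16 (interval -0.77 to -0.09; limma adjusted p = 0.188). The SDs of the groups ran from 0.13 to 0.39 here, whereas the fit takes them as equal. Leaving out LPS replicates 1 and 2 brought both differences to less than the SD of the remaining LPS arrays, 0.23.

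In LPS against control, 0 of the 5 genes were called, where 0.0254% of all genes tested were. At an unadjusted limma p under 0.05, FDPS, SQLE, INSIG1 and AACS were higher in LPS, 4 of 5, against 4.62% of all genes. The median difference of the 5 was 0.32, against 0.01 over all genes tested, and 52.7% of all genes had a difference above 0. The 5 LPS and 5 control arrays did not separate for any of the 5 genes (0 of 5), where LPS lay above control without overlap for 1.08% of all genes. Without LPS replicates 1 and 2 all 5 differences were still above 0, at 0.20 ± 0.17 for HMGCS1, 0.24 ± 0.10 for FDPS, 0.26 ± 0.15 for SQLE, 0.17 ± 0.14 for INSIG1 and 0.10 ± 0.08 for AACS (SE; lowest limma adjusted p = 0.854). FDPS alone then had an unadjusted p under 0.05, 1 of 5 against 3.31% of all genes. The INSIG1 difference thus went from 0.43 to 0.17 without these arrays, whereas that of HMGCS1 stayed at 0.20.

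For LPS+RSV against LPS, 0 of the 5 genes were called, where 0.0424% of all genes were. HMGCS1, FDPS, SQLE and INSIG1 were lower in LPS+RSV at an unadjusted limma p under 0.05, 4 of 5 against 10.5% of all genes. The median difference was -0.38, against 0.01 over all genes, and 47.9% of all genes had a difference below 0. LPS+RSV lay below LPS without overlap for 0 of 5 genes, against 1.39% of all genes tested. This comparison uses the same LPS arrays as the one above, so a high LPS array raises the first and lowers the second. Without LPS replicates 1 and 2 the differences were -0.38 ± 0.17 for HMGCS1, -0.24 ± 0.10 for FDPS, -0.38 ± 0.15 for SQLE, -0.17 ± 0.14 for INSIG1 and -0.03 ± 0.08 for AACS (SE; lowest limma adjusted p = 0.340). HMGCS1, FDPS and SQLE then had an unadjusted p under 0.05, 3 of 5 against 7.38% of all genes. Both SQLE and HMGCS1 therefore differed by about as much without those 2 arrays as with them.

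**Figure D2:**
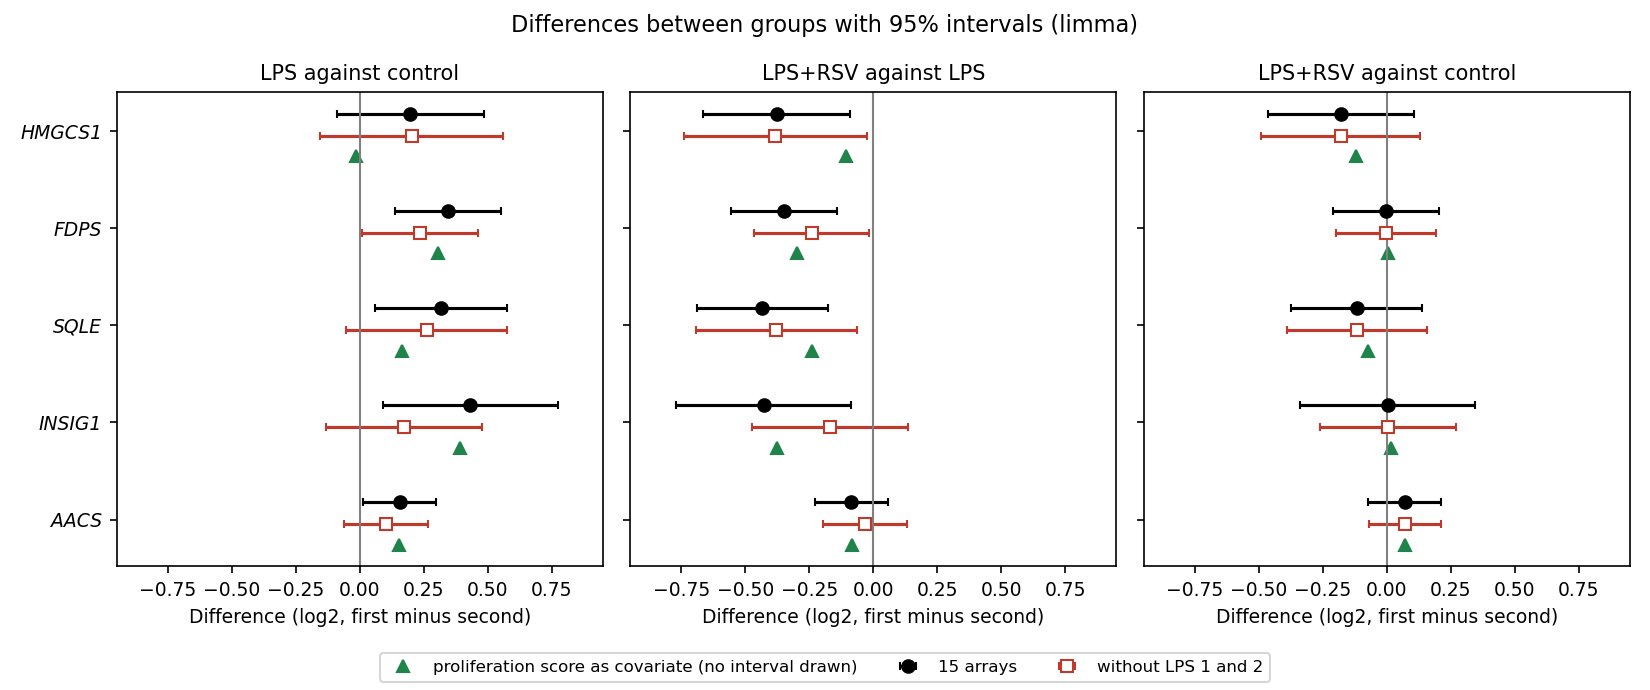
Differences between group means (log2, horizontal axes, first group minus second) for the 5 genes in the 3 comparisons. Filled circles are the fit to 15 arrays and open squares the fit without LPS replicates 1 and 2, both with 95% intervals (limma); triangles are the fit with the proliferation score as a covariate. With that covariate the HMGCS1 difference between LPS and control was -0.01, while that of FDPS was 0.31.

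LPS+RSV against control gave 0 calls among the 5 genes, as among all genes tested (0.0% called by limma). At an unadjusted p under 0.05 there were also 0 of 5, against 4.09% of all genes higher and 6.40% lower. LPS+RSV differed from control by -0.0045 ± 0.10 for FDPS (95% interval -0.21 to 0.20) and 0.0046 ± 0.16 for INSIG1 (interval -0.34 to 0.35). The differences were -0.12 ± 0.12 for SQLE (interval -0.37 to 0.14), -0.18 ± 0.13 for HMGCS1 (interval -0.47 to 0.11) and 0.07 ± 0.07 for AACS (interval -0.07 to 0.21; limma adjusted p from 0.593 to 0.993 over the 5). These intervals leave room for differences of either sign, and the widest belongs to INSIG1.

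Within groups, the genes did not all vary together. Deviations from the group means over the 15 arrays were compared for the 10 pairs of genes, permuting arrays within groups, with Benjamini-Hochberg adjustment over the 10 pairs. FDPS stands here and below for its brighter row alone, which its second row did not follow (r = 0.25 over the 15 arrays). INSIG1 and FDPS followed each other most closely (Pearson r = 0.92, permutation p = 0.00014, adjusted 0.0014; Spearman rho = 0.88, permutation p = 0.00021, adjusted 0.0021). HMGCS1 and SQLE followed each other nearly as closely (r = 0.91, permutation p = 0.001, adjusted 0.005; rho = 0.88, permutation p = 0.0015, adjusted 0.005). Without the 2 arrays farthest from the median r was 0.90 and 0.86 for these pairs. SQLE also ran with FDPS (r = 0.77, permutation p = 0.0052, adjusted 0.011; rho = 0.76, permutation p = 0.006, adjusted 0.0115) and with INSIG1 (r = 0.75, permutation p = 0.0026, adjusted 0.00867; rho = 0.78, permutation p = 0.0014, adjusted 0.005), where r was 0.61 and 0.76 without the 2 farthest arrays. The lowest correlation was that of HMGCS1 with AACS (r = 0.08, permutation p = 0.79, adjusted 0.79; rho = 0.11, permutation p = 0.72, adjusted 0.72), and r was -0.09 without the 2 farthest arrays. AACS ran with FDPS (r = 0.68, permutation p = 0.007, adjusted 0.0117; rho = 0.74, permutation p = 0.0045, adjusted 0.0113; r = 0.64 without 2 arrays) and with INSIG1 (r = 0.67, permutation p = 0.0055, adjusted 0.011; rho = 0.71, permutation p = 0.0069, adjusted 0.0115; r = 0.68 without 2 arrays). The remaining pairs, HMGCS1 with FDPS, HMGCS1 with INSIG1 and SQLE with AACS, had r of 0.51, 0.45 and 0.36 and adjusted permutation p of 0.0912, 0.0912 and 0.211 (rho = 0.56, 0.46 and 0.42, adjusted 0.0743, 0.124 and 0.167). If arrays of a group shared a culture, these p-values are too small.

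The 5 genes differed in how closely they followed proliferation. HMGCS1 followed the proliferation score within groups (r = 0.85, permutation p = 0.00022, adjusted 0.0011 over 5 genes; rho = 0.79, permutation p = 0.002, adjusted 0.01), with r = 0.83 without the 2 farthest arrays. SQLE did so less closely (r = 0.69, permutation p = 0.014, adjusted 0.035; rho = 0.63, permutation p = 0.023, adjusted 0.0575; r = 0.62 without 2 arrays). The high control replicates 1 and 2 and LPS+RSV replicate 2 named above had scores of 0.46, 0.45 and 0.45, the highest of their groups. FDPS, INSIG1 and AACS had r of 0.23, 0.14 and 0.02 (adjusted permutation p = 0.767, 0.800 and 0.940; rho = 0.20, 0.08 and 0.01, adjusted 0.850, 0.975 and 0.990; r = 0.16, 0.10 and -0.10 without 2 arrays). LPS replicates 1 and 2 had scores of 0.19 and 0.13, below those of LPS replicates 4 and 5 at 0.89 and 1.02, while their INSIG1 and FDPS values were the highest of all arrays. Without LPS replicates 1 and 2, r with the score was 0.47 for FDPS and 0.52 for INSIG1.

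**Figure D3:**
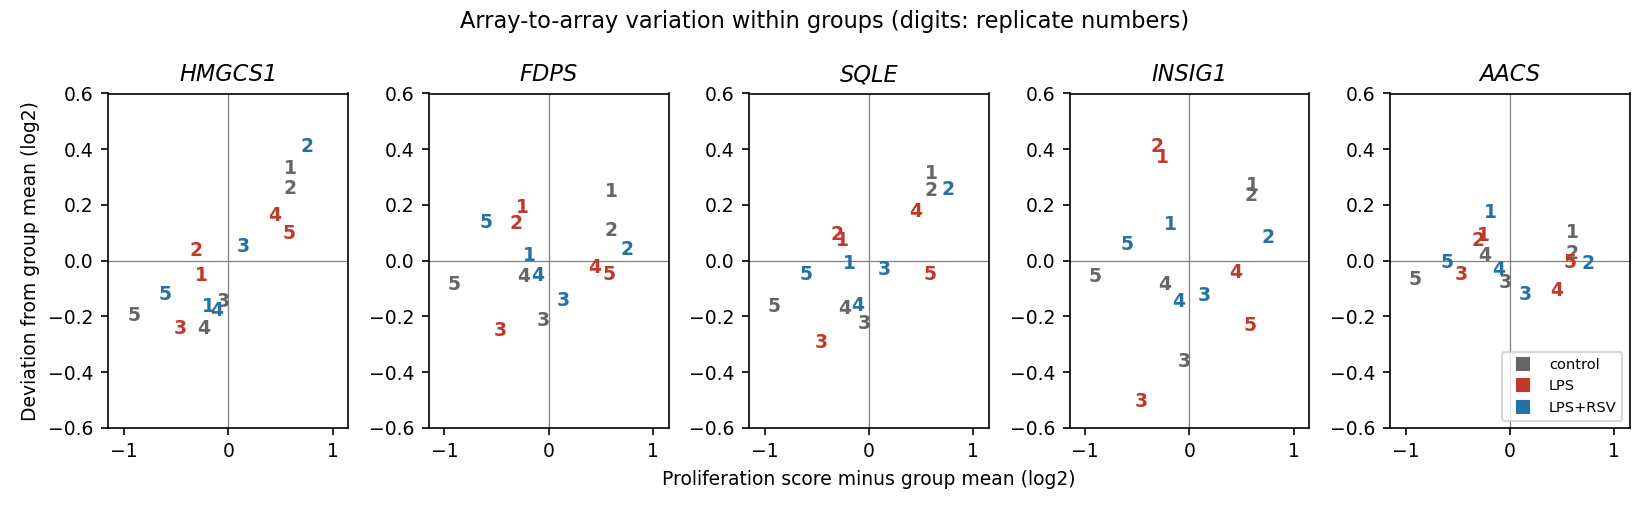
Deviation of each array from its group mean (log2, vertical axes) against its proliferation score minus the group mean (log2, horizontal axes) for the 5 genes; digits are replicate numbers and colours are groups. HMGCS1 is higher where the score is higher (r = 0.85), while INSIG1 (r = 0.14) is highest in LPS replicates 1 and 2, whose scores lie below their group mean.

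With the proliferation score as a covariate in the model, the differences of the 5 genes separated. For LPS against control HMGCS1 went from 0.20 to -0.01 ± 0.09 and SQLE from 0.32 to 0.17 ± 0.10, whereas FDPS (0.31 ± 0.11), INSIG1 (0.39 ± 0.18) and AACS (0.15 ± 0.07) stayed within 0.05 of their values without it. For LPS+RSV against LPS HMGCS1 went from -0.38 to -0.11 ± 0.09 and SQLE from -0.43 to -0.24 ± 0.11, and FDPS, INSIG1 and AACS were at -0.30 ± 0.11, -0.37 ± 0.19 and -0.08 ± 0.08. The score itself had its highest mean in LPS (0.44 ± 0.48, SD, n = 5), against -0.14 ± 0.63 for control and -0.30 ± 0.50 for LPS+RSV, so score and group are not independent in this fit. The fit also includes LPS replicates 1 and 2, without which r with the score was 0.47 for FDPS, 0.52 for INSIG1 and 0.18 for AACS. None of the 5 genes was called in this fit (0 of 5; lowest limma adjusted p = 0.173 and 0.290), in which 0.568% and 0.195% of all genes were.

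The other genes of the pathway were read from 6 lists with 73 genes, of which 34 were named here and all 34 were tested. Over the 34 genes, 25 were higher and 9 lower in LPS than in control (median 0.10), and 12 were higher and 22 lower in LPS+RSV than in LPS (median -0.06). None was called in any of the 3 comparisons (0 of 34), where 0.0254%, 0.0424% and 0.0% of all genes were. At an unadjusted limma p under 0.05 there were 6 higher in LPS than in control, against 4.62% of all genes. LPS+RSV against LPS had 6 lower and 1 higher, against 10.5% and 8.08%, and LPS+RSV against control had 1 lower, against 6.40%. Of all genes, 52.7% were higher in LPS than in control and 47.9% lower in LPS+RSV than in LPS. Without LPS replicates 1 and 2 these medians were 0.04 and 0.02.

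Most of the other enzymes of the pathway also had their highest mean in LPS. Of 12 other enzymes of sterol synthesis tested, 10 were higher in LPS than in control, with a median of 0.16, against 0.01 over all genes, and 4 of them had an unadjusted p under 0.05, against 4.62% of all genes. They were ACAT2, the cytosolic thiolase that makes acetoacetyl-CoA, at 0.30 ± 0.12, IDI1, the isopentenyl diphosphate isomerase, at 0.26 ± 0.12, EBP, a sterol isomerase, at 0.23 ± 0.09, and LBR, a sterol reductase of the nuclear envelope, at 0.21 ± 0.10 (SE; limma adjusted p from 0.573 to 0.631). Between LPS+RSV and LPS, 9 of the 12 were lower in LPS+RSV, with a median of -0.16, and 4 had an unadjusted p under 0.05, against 10.5% of all genes: IDI1 at -0.38 ± 0.12, LBR at -0.32 ± 0.10, ACAT2 at -0.29 ± 0.12 and the methylsterol oxidase MSMO1 at -0.19 ± 0.08 (limma adjusted p from 0.149 to 0.223). PMVK, the phosphomevalonate kinase, was higher in LPS+RSV at an unadjusted p under 0.05, at 0.31 ± 0.14, against 8.08% of all genes. It is named after its value was seen. LPS+RSV replicate 1 was the highest PMVK array, at 7.66, against 6.90 to 7.23 for the rest of its group. That array was also the lowest for IDI1, at 7.31, against 7.69 to 8.04. Without LPS replicates 1 and 2 the medians were 0.10 and -0.06. At an unadjusted p under 0.05 there were then 0 of 12 higher in LPS than in control, against 3.31% of all genes. In LPS+RSV against LPS, IDI1 and LBR were then lower at that threshold, against 7.38% of all genes, and PMVK was higher. Over the same comparisons all 23 proliferation genes were higher in LPS than in control (median 0.60) and lower in LPS+RSV than in LPS (median -0.69), with 0 called by limma and 9 and 16 at an unadjusted p under 0.05. With the proliferation score as a covariate, LPS against control gave 0.18 ± 0.12 for ACAT2, 0.21 ± 0.13 for IDI1, 0.24 ± 0.11 for EBP, 0.08 ± 0.08 for LBR and -0.20 ± 0.16 for HSD17B7, a reductase that stood at 0.11 without it. LPS+RSV against LPS gave -0.13 ± 0.12 for ACAT2, -0.30 ± 0.13 for IDI1, -0.15 ± 0.08 for LBR, -0.24 ± 0.09 for MSMO1 and 0.08 ± 0.12 for PMVK. The values of ACAT2, LBR and PMVK thus moved with the score by over 1.5 times, and those of EBP, IDI1 and MSMO1 did not. Against control, 8 were higher in LPS+RSV and 4 lower, with a median of 0.04. The 4 of lowest p were MVD at 0.21, PMVK at 0.22, HSD17B7 at -0.32 and TM7SF2 at 0.09. LPS+RSV replicate 1 was the highest of all arrays for MVD, at 8.75, PMVK and TM7SF2, at 7.55. For HSD17B7 it was the lowest, at 7.10.

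No gene that senses sterols or processes SREBP was called in any comparison (0 of 7 by limma; lowest adjusted p = 0.387). SREBF2, which encodes the SREBP of the sterol pathway, differed by 0.05 ± 0.07 in LPS against control and by -0.03 ± 0.07 in LPS+RSV against LPS. SREBF1 differed by 0.13 ± 0.06 and -0.06 ± 0.06, the sterol sensor SCAP by -0.07 ± 0.12 and 0.19 ± 0.12, and INSIG2, the other INSIG gene, by 0.10 ± 0.15 and -0.21 ± 0.15. ERLIN1, a sterol-linked protein of the endoplasmic reticulum, differed by 0.14 ± 0.08 in LPS against control, and the ubiquitin ligase gene RNF139 by -0.08 ± 0.07 in LPS+RSV against LPS. Over the 7 genes tested, 5 were higher in LPS than in control (median 0.05) and 5 lower in LPS+RSV than in LPS (median -0.06), with 0 at an unadjusted limma p under 0.05. Without LPS replicates 1 and 2 the list turned: 3 were higher and 4 lower in LPS than in control (median -0.03), and 6 higher and 1 lower in LPS+RSV than in LPS (median 0.04). INSIG2 was then at -0.16 and 0.04, SREBF2 at -0.03 and 0.04, RNF139 at -0.16 and 0.03, and ERLIN1 at 0.05 and 0.03. In LPS+RSV against control the median of this list was 0.07, and RNF139 was at -0.13 ± 0.07 (limma adjusted p = 0.506). It was lower in all 5 LPS+RSV arrays than in all 5 control arrays, against 1.09% of all genes. The gap was narrow, from 6.919 in the highest LPS+RSV array to 6.936 in the lowest control array. In the same comparison ERLIN2 differed by 0.10, SREBF1 by 0.07, SCAP by 0.12, INSIG2 by -0.12 and SREBF2 by 0.02.

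In the list of uptake and transport, with 3 genes tested, STARD4, a carrier of cholesterol between membranes, differed most. Its arrays read 10.02, 10.09, 9.67, 9.71 and 9.83 in control, 10.12, 10.23, 9.63, 10.11 and 9.91 in LPS, and 8.76, 9.78, 9.71, 9.58 and 9.55 in LPS+RSV. LPS+RSV replicate 1 was the lowest of all by a wide margin. LPS+RSV lay 0.52 below LPS (-0.52 ± 0.17; limma adjusted p = 0.160) with that array and -0.34 ± 0.12 without it, and differed from control by -0.39 ± 0.17 with it and -0.21 ± 0.12 without it. In LPS against control STARD4 differed by 0.14 ± 0.17. The ubiquitin ligase gene MYLIP and the oxysterol-binding protein gene OSBP differed by -0.0027 ± 0.16 and 0.01 ± 0.06 in that comparison, by 0.17 and 0.01 in LPS+RSV against LPS, and by 0.17 and 0.02 in LPS+RSV against control.

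**Figure D4:**
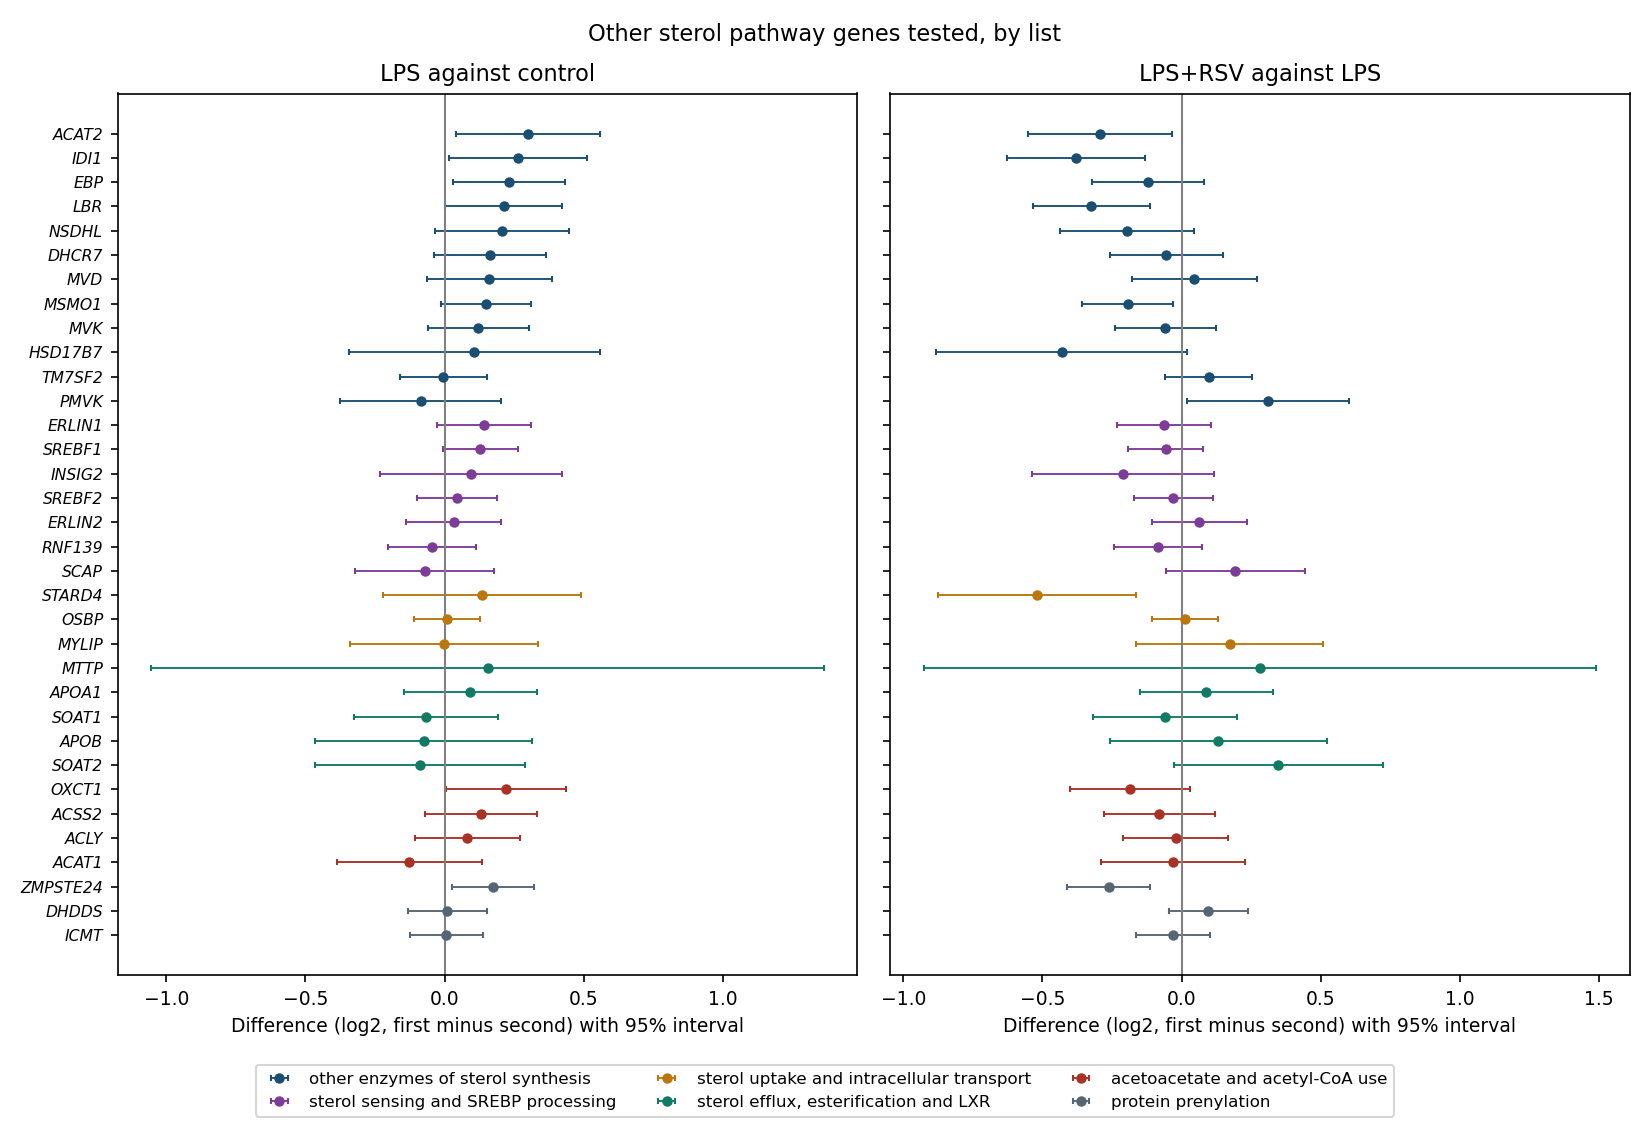
Differences between group means (log2, horizontal axes) with 95% intervals (limma) for the 34 other pathway genes tested, coloured by list. The left panel shows LPS against control and the right panel LPS+RSV against LPS. Most sterol synthesis enzymes lie to the right of 0 in the first panel (10 of 12) and to the left in the second (9 of 12), whereas SREBF2 and SCAP have intervals across 0 in both.

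Genes of sterol efflux and esterification differed in both directions. Of 5 tested, 2 were higher in LPS than in control (median -0.07) and 4 were higher in LPS+RSV than in LPS (median 0.13), with 0 at an unadjusted p under 0.05 by limma. SOAT2, which esterifies cholesterol in enterocytes, differed by -0.09 ± 0.18 and 0.35 ± 0.18, the apolipoprotein genes APOA1 by 0.09 ± 0.11 and 0.09 ± 0.11 and APOB by -0.08 ± 0.18 and 0.13 ± 0.18. SOAT1 differed by -0.07 ± 0.12 in LPS against control, and the lipid transfer protein gene MTTP by 0.28 ± 0.57 in LPS+RSV against LPS, the widest error of the list. MTTP was at 0.92 ± 0.62 there without LPS replicates 1 and 2. With the proliferation score as a covariate SOAT2, APOB and MTTP were at -0.05 ± 0.10, -0.28 ± 0.10 and -1.03 ± 0.27 in LPS+RSV against LPS. In LPS against control MTTP went from 0.15 ± 0.57 to 1.18 ± 0.25 with the score. SOAT1, APOB, SOAT2 and APOA1 went to -0.26 ± 0.08, 0.25 ± 0.09, 0.22 ± 0.09 and 0.21 ± 0.11 (SE). The small LPS differences above thus hold only for the fit without the score, and score and group are not independent. None of the 5 genes was called with the score in either comparison. Between LPS+RSV and control APOA1, SOAT2, SOAT1 and MTTP differed by 0.18, 0.26, -0.13 and 0.44, and the median was 0.18.

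Of 4 genes of acetoacetate and acetyl-CoA use, 3 were higher in LPS than in control (median 0.11) and 4 lower in LPS+RSV than in LPS (median -0.06). OXCT1, which breaks down acetoacetate in mitochondria, differed by 0.22 ± 0.10 and -0.19 ± 0.10. Its LPS arrays 1 and 2 read 6.02 and 6.10, against 5.57 to 5.70 for the other three, and without them the differences were 0.05 ± 0.08 and -0.01 ± 0.08. The values were, for the acetyl-CoA synthetase gene ACSS2, 0.13 ± 0.09 and -0.08 ± 0.09 (0.02 and 0.03 without those arrays), for the citrate lyase gene ACLY 0.08 ± 0.09 and -0.02 ± 0.09, and for the mitochondrial thiolase gene ACAT1 -0.13 ± 0.12 and -0.03 ± 0.12. Between LPS+RSV and control ACAT1, ACLY, ACSS2 and OXCT1 differed by -0.16, 0.06, 0.05 and 0.04. Of 3 prenylation genes, ZMPSTE24, the protease that trims farnesylated proteins, was higher in LPS than in control by 0.17 ± 0.07 and lower in LPS+RSV than in LPS, at -0.26 ± 0.07 (limma adjusted p = 0.562 and 0.127). DHDDS and ICMT differed by 0.01 and 0.01 in the first comparison, by 0.10 and -0.03 in the second and by 0.11 and -0.02 in LPS+RSV against control, where ZMPSTE24 differed by -0.09.

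The tested genes whose values over the 15 arrays were most like those of each of the 5 were ranked by Pearson r, as a description, leaving the 5 themselves out of the ranking. For HMGCS1 they were AMD1 (r = 0.96), NRCAM (0.95) and WEE1 (0.95). For SQLE they were FASN (r = 0.94), CLMP (0.93) and RDH11 (0.93), and for FDPS NOP16 (0.95), SCD (0.91) and VDAC1 (0.90). SCD also came first for INSIG1 (r = 0.93), followed by BUD31 (0.92) and TM4SF1 (0.91), and AACS was nearest to CRKL (0.94), TRIB3 (0.94) and HOXB7 (0.89). Of all genes tested, the 5 included, FDPS was the nearest to INSIG1 (r = 0.94), and only NOP16 was nearer to FDPS than INSIG1 was. These places of FDPS hold for its brighter row. Among the 5, HMGCS1 and AACS were the least alike pair (r = 0.27). For HMGCS1, 33 of the 11804 genes tested were nearer than SQLE was (r = 0.92) and 1472 nearer than FDPS (r = 0.67). INSIG1 (r = 0.61) had 1863 genes nearer to HMGCS1 than it was and AACS 3871, and these counts include HMGCS1 itself.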

How the data were processed

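RNA of 15 Caco-2 samples (3 groups of 5) was measured on 1 array each, and the authors deposited log2 values; RMA is the tool named, per the submitters' processing notes, and it corrects background, equalizes the distributions of the arrays and summarizes probes; the genome build of the array annotation is not given in the sources used here. Of 53617 rows, 16098 carried 1 symbol in GEO's platform annotation, 0 several, and 37519 were unnamed here. The brightest row of each of 14884 symbols was kept, and genes above the 40th percentile of an array's rows in at least 5 of 15 arrays were tested (11804). Group means were compared with limma 3.58.1 (R 4.3.3; lmFit, eBayes) with Benjamini-Hochberg adjustment, a method checked on simulated data. Correlations used 100000 permutations within groups (Python 3.11.15, numpy 2.4.6). The number of arrays limits the precision.

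The 5 genes, the gene lists and the tests were chosen with earlier results of these data known. Named genes are the 5, the up to 4 genes of lowest p per list and comparison, the sterol regulators SREBF1, SREBF2, SCAP and INSIG2 with IDI1, and the 3 genes most like each of the 5. The proliferation score is the mean log2 deviation of 23 cell cycle genes from their means over all arrays. Alternatives varied the row of a symbol, the filter, the normalization, array weights, the groups fitted, the replicate number as a block, the score as a covariate and the arrays left out. No sample was left out of the groups, and 0 columns of values went unused. The labels do not say whether replicate numbers pair the samples, and the main fit did not treat them as pairs.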

Additional observations from a re-analysis of the deposited data

How the results depend on the processing

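None of the 5 genes was called in any comparison under any of the 29 alternatives (0 of 5; lowest limma adjusted p = 0.0553, FDPS in LPS+RSV against LPS without LPS replicate 3), and LPS+RSV against control gave 0 calls over all genes in each. The number of all genes called in LPS against control, 3, became 1 with the dimmest row of a symbol or with arrays centred on their medians, 15 with array weights, 0 with only the 2 groups compared, 67 with the proliferation covariate, and 1 to 10 with 1 array left out (10 without LPS replicate 3, 8 without LPS+RSV replicate 1). In LPS+RSV against LPS, 5 became 9 with the filter on all 15 arrays, 18 after a further quantile normalization, 3 after cyclic loess, 25 with array weights, 0 with only the 2 groups, 23 with the covariate, 1 without LPS replicates 1 and 2, and 1 to 121 with 1 array left out (121 without LPS+RSV replicate 2, 102 without LPS replicate 3). With the replicate block the calls were 6, 3 and 0; same-numbered samples correlated above 0.1 in 1 of 5 pairs of control and LPS, 0 of 5 of LPS and LPS+RSV and 3 of 5 of control and LPS+RSV, so the numbers were not taken as pairs. The causes were not tested.

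Some of the uncalled differences changed sign under an alternative, and these cases are listed below. FDPS, SQLE, INSIG1 and AACS kept their sign in LPS against control under all 29 alternatives, and HMGCS1 turned in 1. HMGCS1, SQLE, INSIG1 and AACS kept theirs in LPS+RSV against LPS under all 29, and FDPS turned in 1. For LPS+RSV against control, FDPS turned in 10 and INSIG1 in 7, and HMGCS1, SQLE and AACS in 0. In LPS against control, the proliferation covariate gave APOB 0.25, HMGCS1 -0.014, ICMT -0.043, MYLIP 0.27, SCAP 0.071 and SOAT2 0.22. A further quantile normalization gave DHDDS -0.0067, ICMT -0.0081 and OSBP -0.0040. LPS replicates 1 and 2 left out gave INSIG2 -0.16, SOAT1 0.071 and SREBF2 -0.026. Leaving out 1 array gave ranges of APOB -0.18 to 0.043, DHDDS -0.027 to 0.029, ICMT -0.021 to 0.030, INSIG2 -0.039 to 0.20, MYLIP -0.11 to 0.082, OSBP -0.013 to 0.027, SOAT2 -0.18 to 0.029 and SREBF2 -0.0032 to 0.079. In LPS+RSV against LPS, array weights gave ACAT1 0.093 and OSBP -0.0061. Cyclic loess gave ACLY 0.029, ICMT 0.0071 and SREBF2 0.0061. The dimmest row of a symbol gave FDPS 0.025. The proliferation covariate gave ACAT1 0.023, APOA1 -0.064, APOB -0.28, ICMT 0.033, MTTP -1.03, MYLIP -0.17 and SOAT2 -0.048. A further quantile normalization gave ACLY 0.032, ICMT 0.038 and SREBF2 0.038. LPS replicates 1 and 2 left out gave ACSS2 0.033, INSIG2 0.045, RNF139 0.030 and SREBF2 0.042. Leaving out 1 array gave ranges of ACAT1 -0.10 to 0.11, ACLY -0.11 to 0.024, ICMT -0.054 to 0.0024, OSBP -0.020 to 0.038 and SREBF2 -0.064 to 0.019. In LPS+RSV against control, array weights gave FDPS 0.021, IDI1 0.0029 and OSBP -0.0042. Arrays centred on their medians gave INSIG1 -0.0060. Cyclic loess gave FDPS 0.015, ICMT 0.013 and OXCT1 -0.0048. The dimmest row of a symbol gave FDPS 0.21 and OXCT1 -0.014. The mean of all rows of a symbol gave FDPS 0.10. The proliferation covariate gave FDPS 0.0064. A further quantile normalization gave FDPS 0.028 and ICMT 0.030. Leaving out 1 array gave ranges of ACLY -0.026 to 0.11, FDPS -0.058 to 0.058, ICMT -0.052 to 0.0092, INSIG1 -0.086 to 0.072, OSBP -0.011 to 0.047, OXCT1 -0.0035 to 0.078 and SREBF2 -0.011 to 0.037. The correlation of FDPS and proliferation score within groups was -0.21 with the mean of rows.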
